A study of Caenorhabditis elegans with 2 samples.

Results

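The glutathione S-transferases, UDP-glycosyltransferases and cytochromes P450 are the large families of detoxifying and lipid-modifying enzymes of Caenorhabditis elegans, encoded by genes named gst, ugt and cyp. Genes were taken by name alone: every line of the deposited splicing-defect table whose symbol was gst, ugt or cyp, a hyphen and a number. This gave 183 of the 19487 genes of the table, of which 43 were gst, 65 were ugt and 75 were cyp genes. At least 50 combined exon reads over both libraries were found for 120 of the 183, namely 29 gst, 50 ugt and 41 cyp genes, and these were analysed. At this limit, ugt-44 with 50 reads, cyp-34A6 with 55 and cyp-33C7 with 56 were the lowest kept. The highest left out were cyp-34A8 with 39 reads, cyp-36A1 with 35 and gst-23 with 34.

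RNA was measured in embryos of mixed stages of the strain BW1943, released from their mothers by bleaching, at 16 °C and at 25 °C. Both groups carried the gad-1 allele ct226 and the linked marker dpy-11(e224), so neither is a wild type, and temperature is what the labels distinguish. Each temperature was represented by 1 library from a stranded mRNA kit, and there were no replicates. A difference between the libraries therefore has no replicate check, and the stage makeup of each collection is not given in the sources used here.

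Glutathione S-transferases join the tripeptide glutathione to reactive compounds, which makes them soluble and ready for export. UDP-glycosyltransferases add a sugar from a UDP-sugar to lipophilic molecules, and cytochromes P450 are heme monooxygenases that draw electrons from a reductase, EMB-8 in this animal. In C. elegans many of these genes are known to be active in the intestine, the main organ of xenobiotic metabolism, and some in the epidermis, and the bZIP factor SKN-1 is a known activator of many gst and ugt genes.

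The 16 °C library held 22016818 reads, of which 1.43% were intron reads, and the 25 °C library held 18175617, of which 2.47% were intron reads. The mutated gene, gad-1, had 3123 exon reads at 16 °C and 2748 at 25 °C, 1.07-fold higher at 25 °C per library read with a counting interval of 1.01 to 1.12. These reads do not check the allele, which both libraries carry. Levels are given as RPKM, computed here as exon reads on the reads-per-million scale of the library (RPM) divided by the deposited exon length in kilobases. Changes of exon reads are ratios of library-scaled counts, described by size at 2-fold, with exact 95% intervals that cover counting error only.

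Before any split by read number, all 3 families were lower at 25 °C than the gene table as a whole, the P450 genes by the smallest margin. Exon reads were at least 2-fold lower for 20 of 29 gst genes (69.0%), 33 of 50 ugt genes (66.0%) and 21 of 41 cyp genes (51.2%), against 29.4% of the 12088 genes with the same minimum. They were at least 2-fold higher for 1 gst, 2 ugt and 3 cyp genes, against 4.10% of those genes. The median log2 change was -2.02 for gst (quartiles -3.47 and -0.96), -2.29 for ugt (-3.92 and -0.72) and -1.04 for cyp (-1.90 and -0.23). Over all 12088 genes it was -0.34, with quartiles of -1.24 and 0.18. Losses of at least 10-fold were seen in 8 gst, 19 ugt and 4 cyp genes, beside 948 of the 12088. Log2 values were taken with 0.5 reads added, so those of the 4 genes with 0 reads at 25 °C depend on that addition. The family medians are the same with these genes set at their bound, which lies below the median.

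The counting interval lay wholly beyond 2-fold lower for 18 gst (62.1%), 28 ugt (56.0%) and 13 cyp genes (31.7%), against 2787 of the 12088 (23.1%). It lay wholly beyond 2-fold higher for 1 gene in each family, against 307 of the 12088 (2.54%). With the median exon ratio as the scale every log2 value lay 0.36 higher. It left 19 gst genes at least 2-fold lower and 1 higher, 29 ugt lower and 4 higher, and 15 cyp lower and 6 higher, while all genes split into 2805 lower and 1017 higher. Under that scaling the family medians were -1.66, -1.93 and -0.68, against 0.017 over all genes. The same shift applies to every gene, so it could not bring these medians to 0 or change their distance from all genes.

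**Figure D1:**
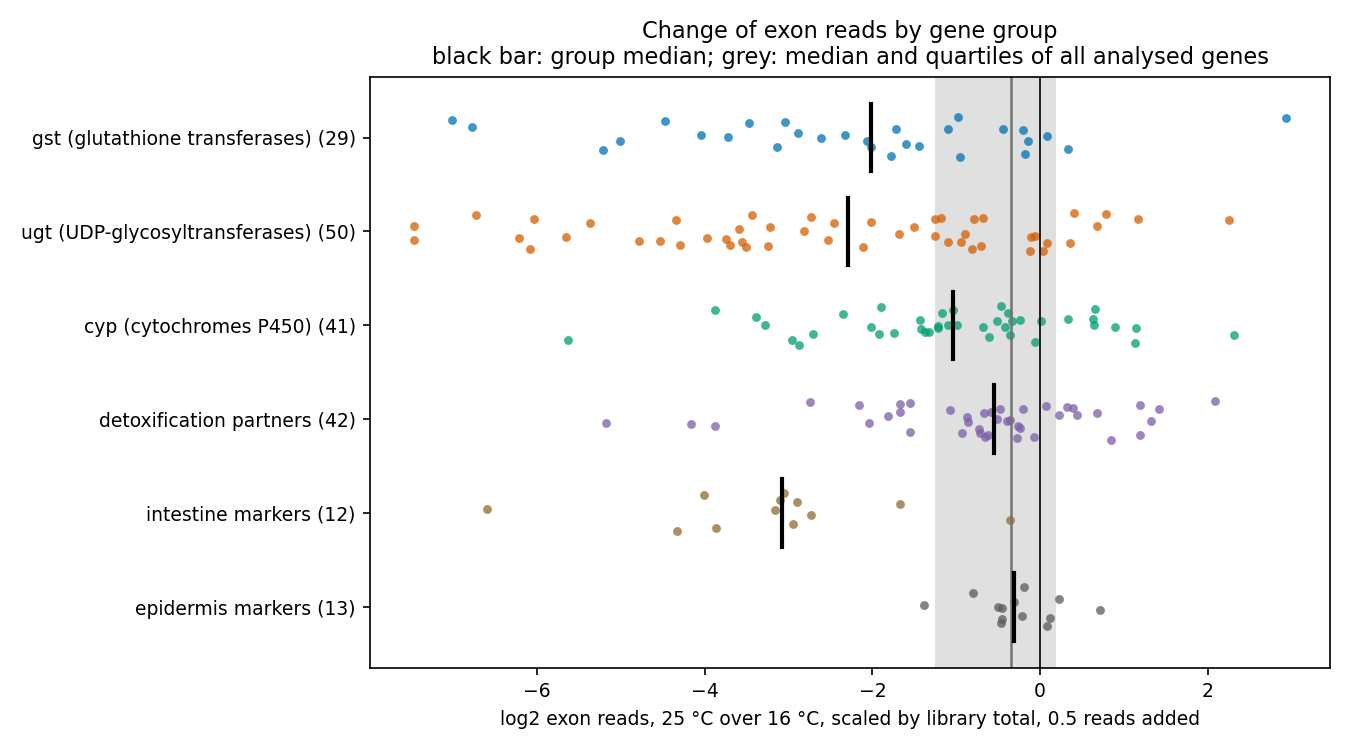
Log2 ratio of exon reads, 25 °C over 16 °C, for each gene with at least 50 combined exon reads (points, spread vertically for sight only) by gene group, with the number of genes in brackets. The medians of gst (-2.02) and ugt (-2.29) lie left of the grey band that spans the quartiles of all genes, between it and the intestine marker median (-3.08), while the cyp median (-1.04) lies inside that band and epidermis markers centre at -0.31.

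Markers of the intestine and pharynx were lower in the same library. Of the 12 intestine markers measured, 11 were at least 2-fold lower at 25 °C, with a median log2 change of -3.08. Their summed level went from 864 to 126 RPM, and none of the 5 defining markers was at 0 in either library. The intestinal GATA factor gene elt-2 had 879 exon reads at 16 °C and 84 at 25 °C, and the gut esterase gene ges-1 had 450 and 18. All 5 pharynx markers were also at least 2-fold lower, from 553 to 44.2 summed RPM. Epidermis markers stayed close in level, with 1 of 13 at least 2-fold lower (che-14) and summed levels of 6752 and 6275 RPM. None of 12 maternal germline markers was past 2-fold in either direction, with 1320 and 1316 summed RPM. Other tissues held some losses past 2-fold, in 3 of 8 neuron markers (rab-3, ric-4, snt-1) and 2 of 7 body wall muscle markers (lev-11, pat-10). Neuron markers summed to 879 RPM at 16 °C and 908 at 25 °C, and body wall muscle markers to 3436 and 2677. The middle log2 values of these lists were -0.51 for neurons and -0.47 for body wall muscle. In such bulk RNA fewer cells of a type and less RNA per cell cannot be told apart, and the part of the marker changes in the enzyme changes was not tested.

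The families differed in level as well as in change. At 16 °C the median gst gene stood at 13.7 RPKM, the median ugt gene at 6.90 and the median cyp gene at 3.30, against 20.9 over all 12088 genes. At 25 °C these medians were 3.72, 1.09 and 1.66 RPKM, against 15.3. Summed over their analysed genes, gst reads went from 767 to 280 RPM, 2.74-fold lower. The ugt sum went from 924 to 481 RPM (1.92-fold lower) and the cyp sum from 570 to 385 (1.48-fold lower). In each family the sum was less reduced than the median gene.

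**Figure D2:**
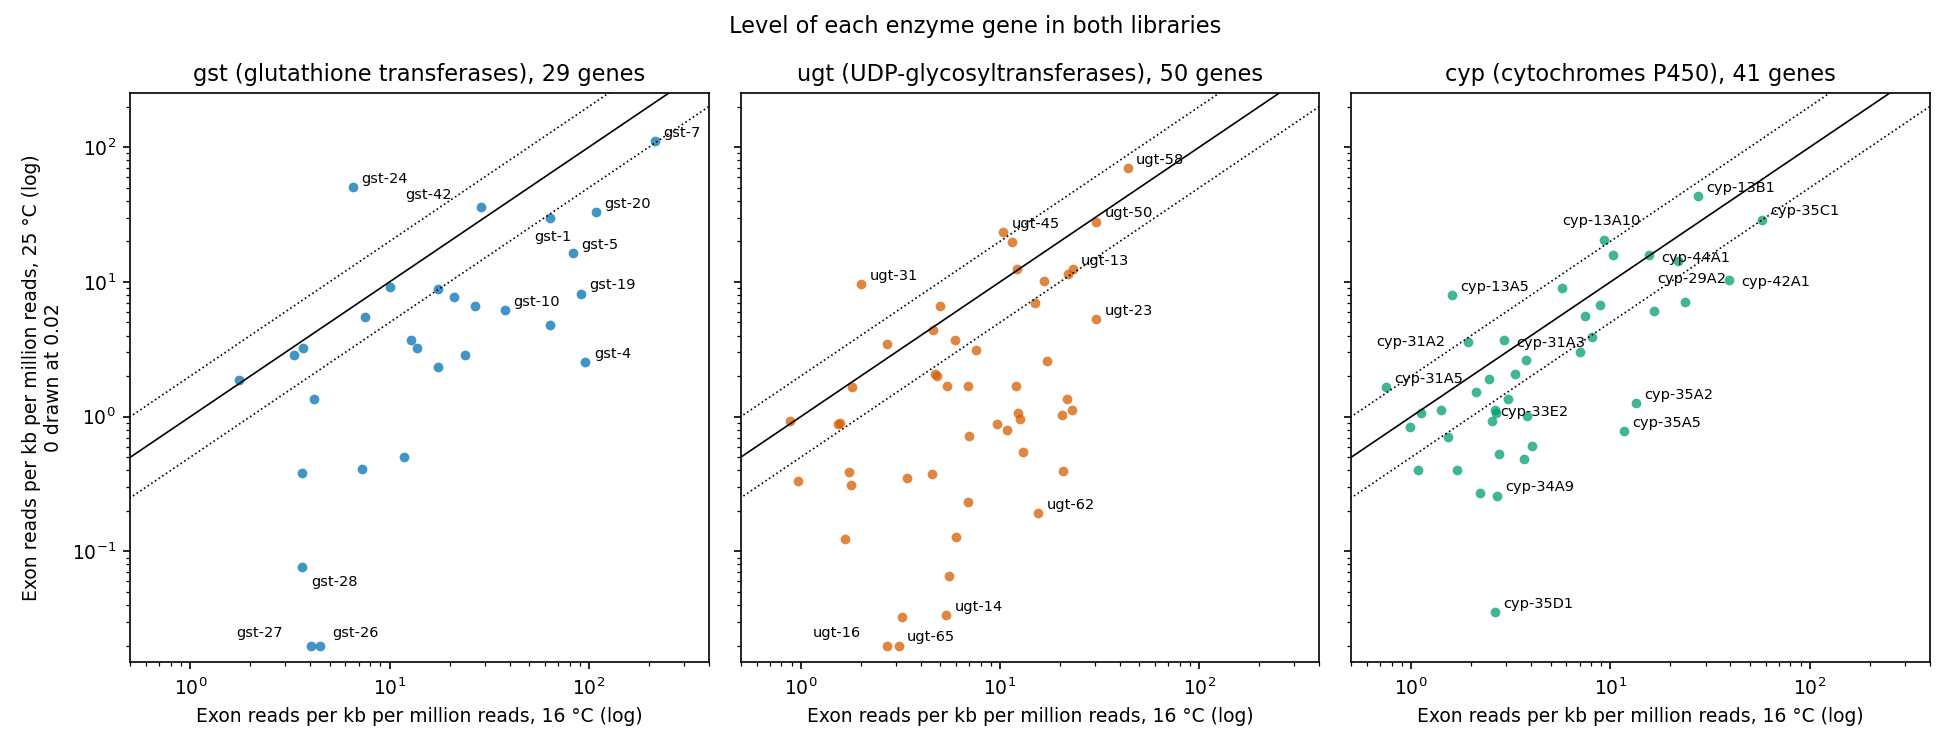
Level of each analysed gene at 16 °C (horizontal) and 25 °C (vertical), in RPKM on log axes, by family, with 1 library per axis and 0 drawn at 0.02. The solid line marks equal levels and the dotted lines 2-fold; gst-24 (6.54 and 50.3), ugt-31 (2.01 and 9.64) and cyp-13A5 (1.61 and 8.03) lie above the upper line, and gst-4 (96.2 and 2.55) lies far below the lower line.

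Among the glutathione S-transferases, the 4 most abundant were all lower at 25 °C, by unequal amounts. gst-7 had 3538 exon reads at 16 °C and 1506 at 25 °C, or 216 and 111 RPKM, 1.94-fold lower with an interval of 1.83 to 2.06. gst-20 had 1944 and 488 reads (108 and 32.9 RPKM), 3.29-fold lower (2.98 to 3.64). gst-19 had 1335 and 99 reads (91.2 and 8.19 RPKM), 11.1-fold lower (9.07 to 13.8). The intervals of these 3 genes do not overlap, so the losses differed by more than counting error. gst-5 had 1380 and 226 reads (82.8 and 16.4 RPKM), 5.04-fold lower (4.38 to 5.83).

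gst-4, the gene whose promoter is the standard reporter of SKN-1 activity, had the deepest loss among transferases with over 1000 combined exon reads. It had 1738 exon reads at 16 °C and 38 at 25 °C, or 96.2 and 2.55 RPKM, 37.8-fold lower (27.4 to 53.5). Its intron reads numbered 94 and 0. It lies at chromosome IV, 10142225 to 10143099 on the plus strand (WBcel235), and overlaps dhs-12 on the same strand by 645 bases. dhs-12 had 449 and 322 exon reads, so its share in the reads given to gst-4 is uncertain.

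A trio of neighbours was near or at 0 at 25 °C. gst-26 had 78 exon reads at 16 °C and 0 at 25 °C, which with a floor of 3 reads in the 25 °C library is at least 21.5-fold lower. gst-27 had 66 and 0 reads, at least 18.2-fold lower by the same floor. gst-28 had 58 and 1 reads, a ratio of 47.9 (counting interval 8.26 to 1923). These 3 genes lie side by side on chromosome II between 15163817 and 15167577, and the counting may split reads between near-identical copies, so their separate values are uncertain.

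The other transferases with a known specific role differed among themselves. gst-10, whose product conjugates the lipid peroxidation product 4-hydroxynonenal, had 647 and 87 exon reads, 6.14-fold lower (4.90 to 7.77). gst-1, a pi class enzyme, had 1082 and 416, 2.15-fold lower (1.92 to 2.41). gst-42, the zeta class enzyme that acts in tyrosine breakdown as a maleylacetoacetate isomerase, had 636 and 660, which is 1.26-fold higher per library read (1.13 to 1.40). The last was the transferase of known role with no loss.

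gst-24 was the 1 transferase past 2-fold higher. It had 104 exon reads at 16 °C and 660 at 25 °C, or 6.54 and 50.3 RPKM, 7.69-fold higher (6.24 to 9.55), with 0 and 14 intron reads. Its level at 25 °C was second among the transferases in RPKM, behind gst-7. It lies at chromosome II, 13610443 to 13611366 on the minus strand.

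The UDP-glycosyltransferases held the deepest losses, but their most abundant gene was not among them. ugt-58 had 1684 exon reads at 16 °C and 2224 at 25 °C, or 43.7 and 69.9 RPKM, 1.60-fold higher (1.501 to 1.71). ugt-50 had 1795 and 1365 reads (30.4 and 27.99 RPKM), 1.09-fold lower (1.01 to 1.17), a direction that turns under scaling by the median exon ratio. ugt-23 started at the same level as ugt-50 but had 1148 and 164 reads (30.4 and 5.27 RPKM), 5.78-fold lower (4.90 to 6.85). ugt-13 had 835 and 371 reads (23.2 and 12.5 RPKM), 1.86-fold lower (1.64 to 2.11).

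Some glycosyltransferases were reduced to single reads. ugt-16 had 107 exon reads at 16 °C and 0 at 25 °C, which with the floor of 3 reads is at least 29.4-fold lower. ugt-65 had the same counts, but it overlaps the collagen gene col-130 on the opposite strand by 1012 bases, and col-130 itself had 343 and 2 reads. Whether the counting used strand is not given in the sources used here, so the ugt-65 reads are uncertain. ugt-14 had 192 and 1 reads, a ratio of 159 (28.1 to 6293). ugt-62 had 587 and 6, or 15.5 and 0.192 RPKM, 80.8-fold lower (36.9 to 221). Large losses also met genes that were abundant for this family at 16 °C, and 2 examples chosen after their values were seen are ugt-22 and ugt-57. ugt-22 had 947 and 15 exon reads, 52.1-fold lower (31.4 to 93.5), and ugt-57 had 1020 and 41, 20.5-fold lower (15.03 to 28.8). Their 16 °C levels of 20.6 and 22.99 RPKM were near the median of 20.9 over all 12088 genes. ugt-22 overlaps a protein-coding gene, and ugt-57 overlaps a gene that is not protein-coding.

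Against these, ugt-31 and ugt-45 were past 2-fold higher. ugt-31 had 74 exon reads at 16 °C and 293 at 25 °C, or 2.01 and 9.64 RPKM, 4.80-fold higher (3.71 to 6.28). ugt-45 had 382 and 709 (10.4 and 23.4 RPKM), 2.25-fold higher (1.98 to 2.55). The interval of ugt-31 lies wholly beyond 2-fold and that of ugt-45 does not.

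The cytochromes P450 were the least reduced family, and the losses followed the number groups of the nomenclature unevenly. The most abundant gene, cyp-35C1, had 1942 exon reads at 16 °C and 808 at 25 °C, or 57.5 and 28.96 RPKM, 1.98-fold lower (1.83 to 2.16). cyp-13B1 had 1003 and 1293 (27.6 and 43.04 RPKM), 1.56-fold higher (1.44 to 1.70). cyp-42A1 had 1571 and 341 (39.3 and 10.3 RPKM), 3.80-fold lower (3.38 to 4.29). cyp-29A2 had 831 and 451 (21.9 and 14.4 RPKM), 1.52-fold lower (1.35 to 1.71). In RPKM, cyp-13B1 stood behind cyp-35C1 and cyp-42A1 at 16 °C and led the family at 25 °C.

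The 4 largest losses of single genes were in the cyp-35 and cyp-34 groups, of which the former includes xenobiotic-inducible genes of the intestine. cyp-35D1 had 90 exon reads at 16 °C and 1 at 25 °C, a ratio of 74.3 (13 to 2967). cyp-35A5 had 418 and 23, 15-fold lower (9.86 to 23.9). cyp-35A2, which is induced by many foreign compounds and is used as a marker of such exposure, had 476 and 37, 10.6-fold lower (7.59 to 15.3). cyp-34A9 had 100 and 8, 10.3-fold lower (5.04 to 24.6). Over the groups, 4 of 6 analysed cyp-35 genes, 3 of 3 cyp-34 genes and 2 of 2 cyp-37 genes were at least 2-fold lower. The medians of these groups were -2.57, -1.90 and -2.83 on the log2 scale. The cyp-33 group had 4 of 8 genes past 2-fold lower, including cyp-33E2, an enzyme of eicosanoid synthesis, with 92 and 28 reads, 2.71-fold lower (1.76 to 4.30).

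The cyp-13 and cyp-31 groups stood at the other end. Of 7 analysed cyp-13 genes 1 was at least 2-fold lower and 2 were higher, with a median of 0.64, and of 3 cyp-31 genes none was lower and 1 was higher, with a median of 0.90. cyp-13A5 had 59 exon reads at 16 °C and 243 at 25 °C, or 1.61 and 8.03 RPKM, 4.99-fold higher (3.74 to 6.75). cyp-13A10 had 369 and 672, 2.21-fold higher (1.94 to 2.51). cyp-31A2 and cyp-31A3, which act with emb-8 in making the lipid barrier of the eggshell, had 68 and 105 reads and 101 and 105 reads. cyp-31A2 was 1.87-fold higher (1.37 to 2.58) and cyp-31A3 1.26-fold higher, with an interval of 0.949 to 1.67 that holds 1. These genes are close copies, so the split of reads between them is uncertain. cyp-31A5 had 24 and 44 reads, 2.22-fold higher (1.32 to 3.82), and overlaps a gene on the other strand by 101 bases.

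A few P450 genes of known role gave little or no difference to read. cyp-44A1, the mitochondrial P450, had 626 and 520 exon reads, a ratio of 1.01 (0.894 to 1.13), and overlaps a gene on the same strand by 106 bases. cyp-14A3 had 1 and 1 reads, and the rifampicin-inducible cyp-13A7 had 1 and 3, both under the minimum and too few to compare.

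**Figure D3:**
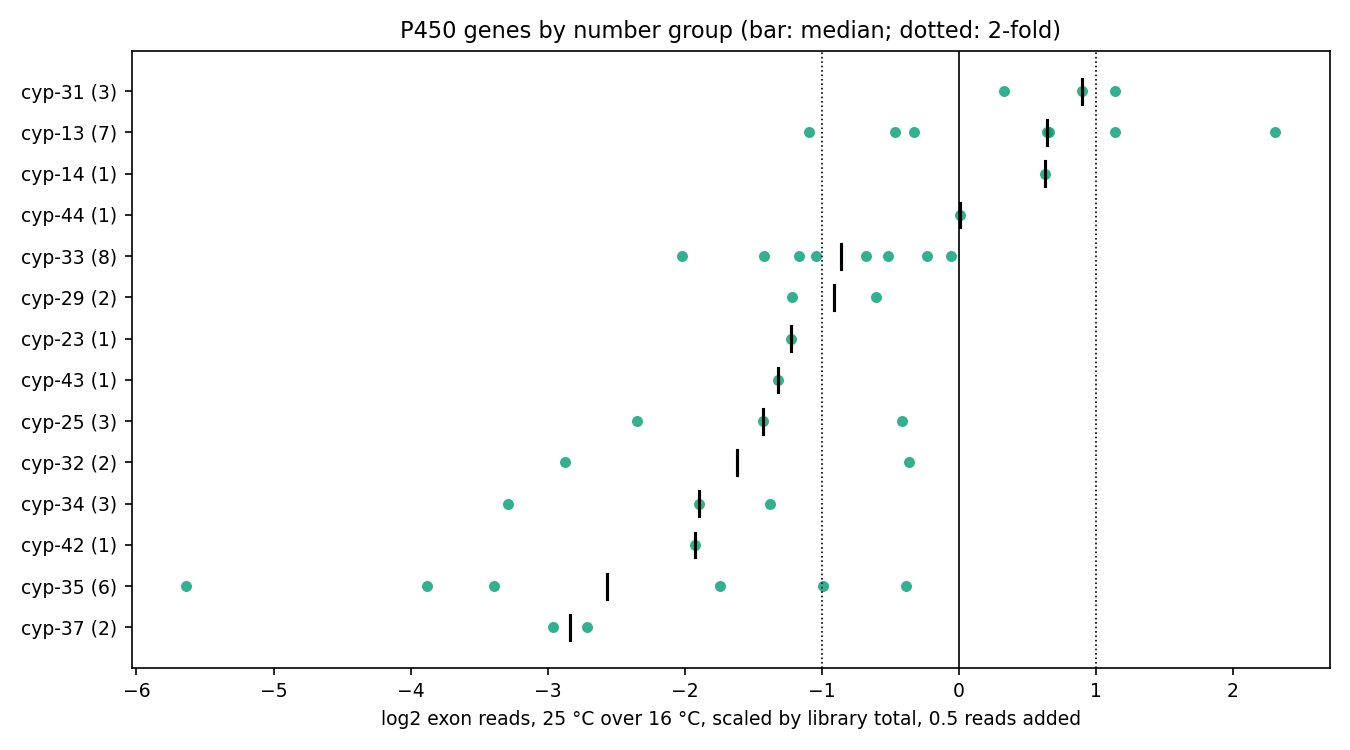
Log2 ratio of exon reads, 25 °C over 16 °C, of the 41 analysed P450 genes (points) by the number in their name, with the number of genes in brackets, a bar at each median and dotted lines at 2-fold. The cyp-37 (-2.83) and cyp-35 (-2.57) medians lie below -2, whereas the cyp-13 (0.64) and cyp-31 (0.90) medians lie above 0.

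In the table as a whole, genes with few reads were more often lower, so the shares are also given by read number, a split chosen after seeing the data. Among genes with 50 or more but under 200 combined exon reads, 65.2% of the 46 enzyme genes and 57.9% of all 2406 genes were at least 2-fold lower. By family, 6 of 10 gst, 10 of 14 ugt and 14 of 22 cyp genes (63.6%) were lower in this class. From 200 to under 1000 reads the shares were 66.7% of 51 enzyme genes and 41.6% of 3278 genes. Here 8 of 11 gst, 21 of 28 ugt and 5 of 12 cyp genes (41.7%) were lower. The cyp share was thus near that of all genes, with a median log2 change of -0.46 against -0.73. With 1000 or more reads the shares were 43.5% of 23 enzyme genes and 12.5% of 6404 genes. In this top class 6 of 8 gst genes were lower, against 2 of 8 ugt and 2 of 7 cyp genes.

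Many of these genes lie in arrays, and neighbours in an array did not share 1 value. Chromosome II holds 24 of the 43 gst genes, and chromosome V holds 41 of the 65 ugt and 42 of the 75 cyp genes. Runs of genes of 1 family with gaps of at most 20 kb held 51 analysed genes in 15 runs with at least 2 analysed genes each. In 11 of the 15 runs at least 1 gene was 2-fold or more lower and at least 1 was not, and in 3 runs every analysed gene was lower. In the gst run on chromosome II from 13608154 to 13630887, gst-24 (log2 change 2.94) lies next to gst-20 (-1.72), and gst-19 at -3.47 marks its lowest value. In the run at 15163817 to 15185389 on the same chromosome, 5 of 6 analysed genes were lower, from -7.02 for gst-26 to -0.98 for gst-39.

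The glycosyltransferase and P450 arrays were also mixed. In the ugt run on chromosome V from 4887165 to 4911399, ugt-14 at -6.73 adjoins ugt-13 at -0.89. In the run from 12790676 to 12830114 on chromosome V, ugt-16 at -7.47 adjoins ugt-18 at -0.79. In the cyp-13A array on chromosome II from 9779181 to 9807569, cyp-13A5 at 2.31 lies 3 places from cyp-13A2 at -1.09. In the cyp-35 and cyp-34 array on chromosome V from 3936326 to 3972991, 3 of 11 genes had enough reads, and all 3 were at least 2-fold lower. In the same array cyp-34A8, which is under the minimum, had 1 and 38 reads and so went the other way.

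**Figure D4:**
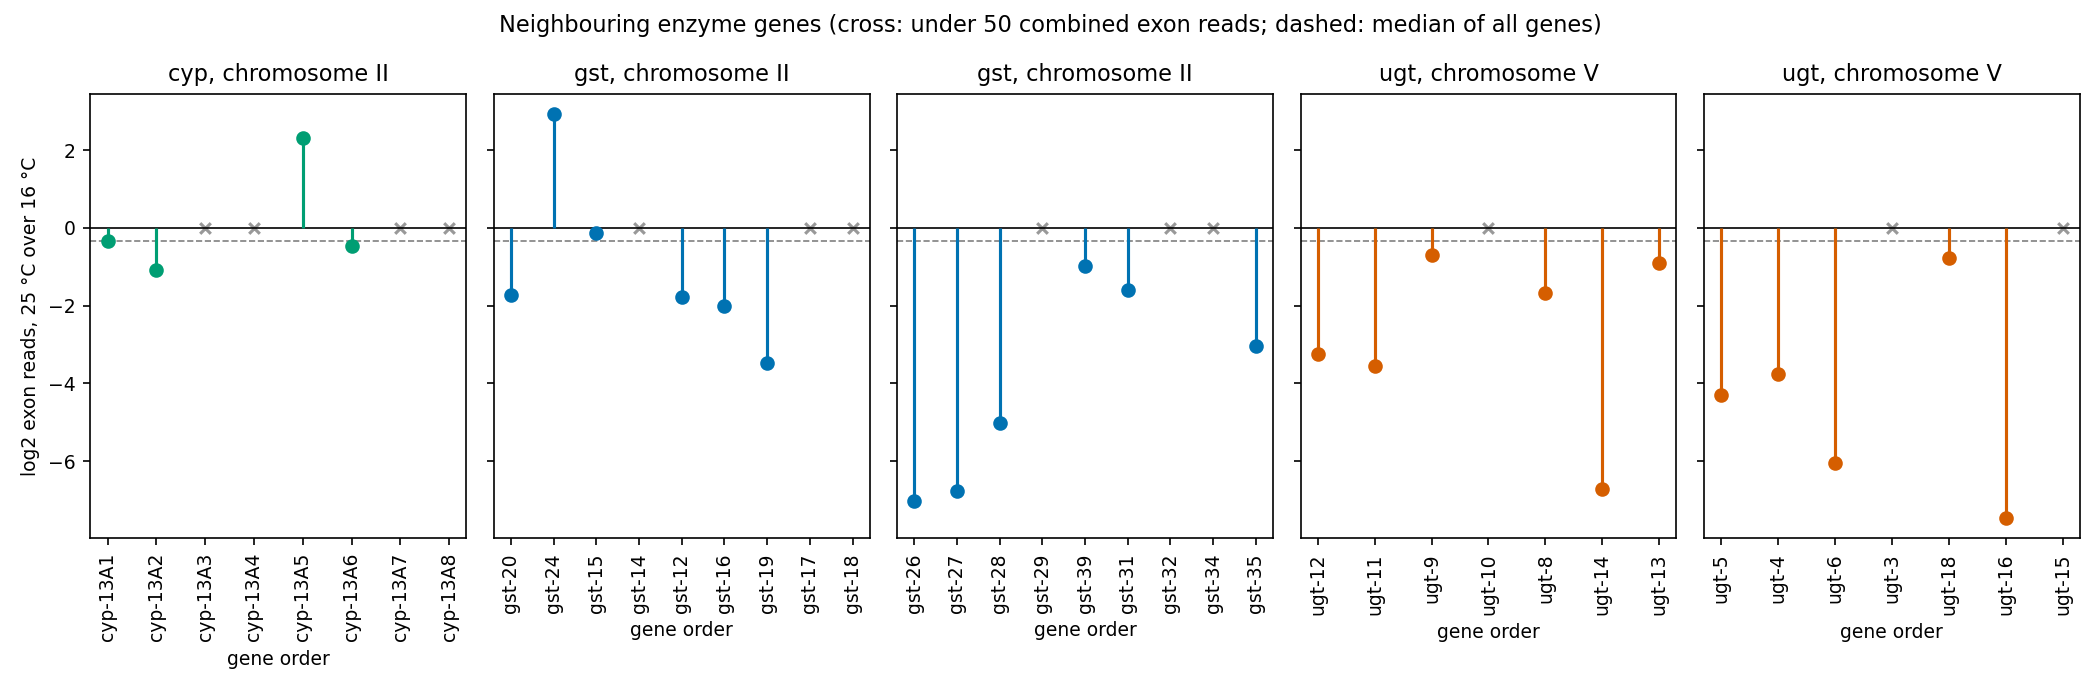
Log2 ratio of exon reads, 25 °C over 16 °C, of neighbouring genes in the 5 arrays with at least 4 analysed genes, in gene order, with crosses for genes under 50 combined exon reads and a dashed line at the median of all genes (-0.34). Lines run in both directions in the cyp and the first gst array, and reach below -6 in the second gst array and both ugt arrays.

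The deposited table was built to look at splicing defects, so the intron-to-exon read ratio of the same genes was compared by a two-sided Fisher exact test. It sets the reads of 2 libraries against each other, not the temperatures, and was adjusted over all 14972 genes with at least 10 combined reads. The ratio rose in 4 of 29 gst, 3 of 50 ugt and 3 of 41 cyp genes and fell in 1 ugt gene, so that 109 of 120 were not called. Over the 12088 genes with at least 50 exon reads, 34.3% rose and 0.736% fell. The enzyme genes had few intron reads to test, with a median of 8 per gene against 26 over all those genes. Where intron reads numbered 10 or more in both libraries together, a minimum added after seeing the data, 9 of 55 enzyme genes rose (16.4%), against 45.6% of 8592 genes. Depth stayed unequal, as the median analysed enzyme gene had 301 combined exon reads, against 1139 over the 12088 genes. In the exon read classes used above, 4.35% of enzyme genes and 8.23% of all genes rose at 50 to under 200 reads. The shares were 7.84% and 20.8% from 200 to under 1000, and 17.4% and 51.0% at 1000 or more.

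The clearest rise was in ugt-50, a gene whose exon reads hardly differed. Its intron reads went from 27 at 16 °C to 74 at 25 °C and its ratio rose 3.60-fold (2.28 to 5.86), with an adjusted p of 6.12e-08 by the exact test with Benjamini-Hochberg adjustment. In the authors' deposited table it is the 1 member of the 183 under an adjusted p of 0.01, with a fold of 3.60 and an adjusted p of 4.73e-05, beside 1085 of all 19487 genes. It overlaps nhr-26 on the opposite strand by 424 bases, and nhr-26 had 8 and 1 exon reads. It also overlaps a miRNA gene on the same strand by 58 bases, for which no reads were given. Among other glycosyltransferases, ugt-63 rose 8.60-fold (1.89 to 38.5) from 5 and 5 intron reads, and ugt-28 rose 6.71-fold (1.86 to 36.5) from 3 and 16. Their adjusted p by the same exact test was 0.0112 and 0.00386.

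The transferases that rose rest on few intron reads. gst-43 had 12 intron reads at 16 °C and 17 at 25 °C beside 320 and 97 exon reads, and its ratio rose 4.67-fold (2.02 to 11.1), with an adjusted p of 0.000692 by the exact test. gst-1 had 4 and 8 intron reads and rose 5.202-fold (1.38 to 23.7), adjusted p 0.0239 by the exact test. gst-13 had 18 and 5 and rose 4.46-fold (1.25 to 12.9), adjusted p 0.0400 by the exact test. gst-30 had 2 and 10 and rose 6.90-fold (1.35 to 67.0), adjusted p 0.0417 by the exact test. Of the P450 genes, cyp-35A2 rose 7.72-fold (2.16 to 24.8) with 10 and 6 intron reads, and cyp-35A3 rose 6.09-fold (1.43 to 29.5) with 4 and 6. Their adjusted p was 0.00470 and 0.0254 by the exact test. cyp-29A3 had 0 and 6 intron reads, with an adjusted p of 0.00279 by the exact test and no fold, since its 16 °C count was 0.

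The single fall was in ugt-31, the glycosyltransferase with the largest gain of exon reads. It had 22 intron reads at 16 °C and 15 at 25 °C beside 74 and 293 exon reads, and its ratio was 5.81-fold lower (2.71 to 12.6), with an adjusted p of 1.30e-05 by the exact test with Benjamini-Hochberg adjustment. In gst-4 and gst-24 the ratio was not called, with adjusted p of 0.4998 and 0.468 by the exact test.

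**Figure D5:**
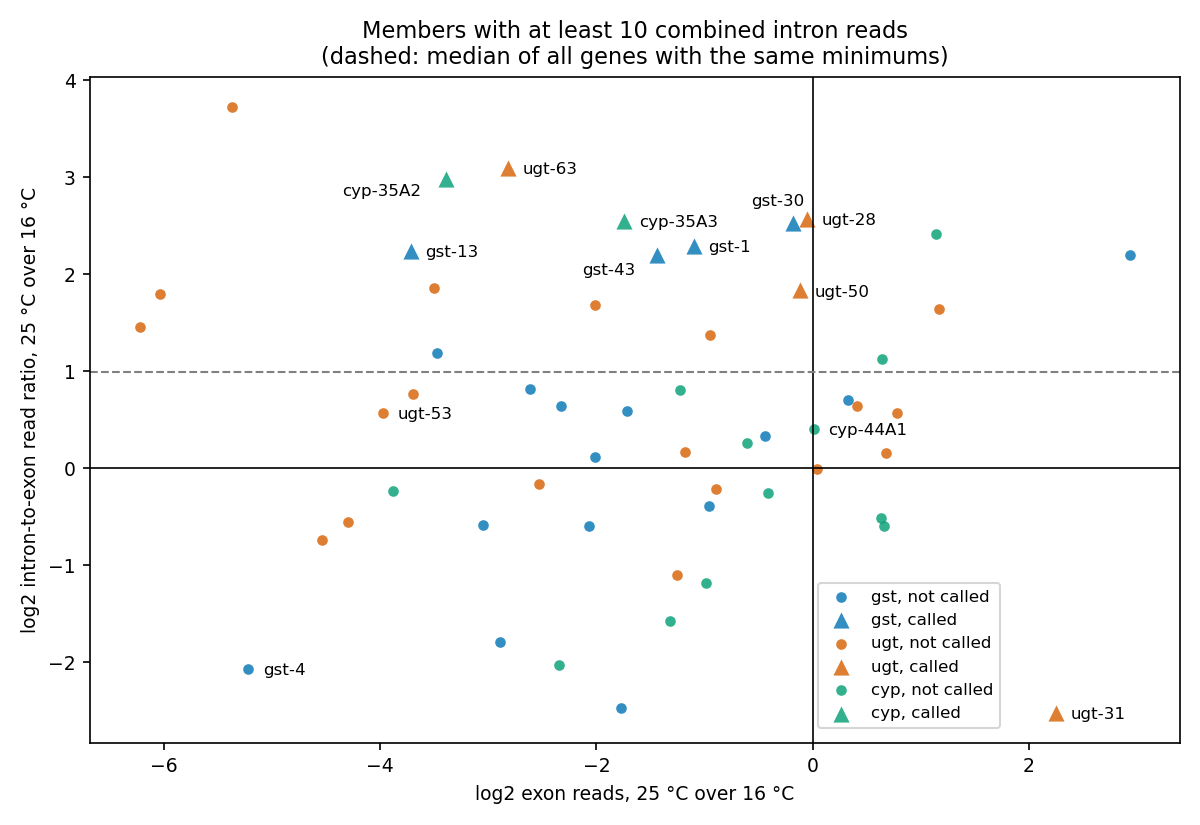
Log2 change of the intron-to-exon read ratio (vertical) against that of exon reads (horizontal), 25 °C over 16 °C, for the 55 enzyme genes with at least 10 combined intron reads. Triangles mark genes called by the Fisher test with Benjamini-Hochberg adjustment, the dashed line marks the median of all genes with the same minimums (0.99), and ugt-31 is the called gene below 0.

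Intron reads were also summed over the genes with lower exon reads. Over the 74 analysed genes at least 2-fold lower, exon reads summed to 29922 at 16 °C and 4321 at 25 °C, 5.72-fold lower per library read. Their intron reads summed to 1043 and 195, 4.42-fold lower. Over all 3555 genes at least 2-fold lower, exon reads were 3.55-fold lower in sum and intron reads 1.72-fold lower. The intron share of reads in the 74 enzyme genes was 3.37% and 4.32%, and in all 3555 genes 1.56% and 3.16%. By family, 16 of 20 gst, 24 of 33 ugt and 12 of 21 cyp genes that were lower also had fewer scaled intron reads at 25 °C. Together these were 52 of 74 (70.3%), against 2198 of the 3555 lower genes of the table (61.8%). Genes with no intron reads cannot have fewer, and 61 of the 74 and 3141 of the 3555 had intron reads.

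The partner genes of the pathway were lower about as often as the gene table as a whole. They were higher more often, and all 5 higher genes were efflux pumps. Of 53 listed genes 51 were matched by symbol and 42 had at least 50 combined exon reads. Of the 42, 12 were at least 2-fold lower (28.6%) and 5 higher (11.9%) at 25 °C, against 29.4% and 4.10% of the 12088 genes. Their median log2 change was -0.55, against -0.34. The intron-to-exon ratio rose in 16 of the 42 and fell in 1, against 34.3% and 0.736% of the 12088 genes. The 3 listed electron donors of P450 enzymes were all lower, each by less than 2-fold. emb-8, the P450 reductase, had 1886 and 1291 exon reads, 1.21-fold lower (1.12 to 1.30). cytb-5.1 had 4783 and 2067, 1.91-fold lower with an interval of 1.81 to 2.01 that holds 2-fold. cytb-5.2 had 4227 and 2103, 1.66-fold lower (1.57 to 1.75). Genes of glutathione synthesis were also each lower by less than 2-fold, and gcs-1, the glutamate-cysteine ligase, had 3042 and 1762 reads, 1.43-fold lower (1.34 to 1.51). The intron ratio of gcs-1 rose 3.08-fold (1.54 to 6.43), with an adjusted p of 0.00371 by the exact test, and it rose in all 3 genes of that list.

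Supply of the sugar donor and regulation gave the following values. sqv-4, the UDP-glucose dehydrogenase that makes UDP-glucuronate, had 1213 and 552 exon reads, 1.81-fold lower (1.64 to 2.01). Its intron reads were 1 and 10, and its ratio rose 21.97-fold (3.11 to 954), with an adjusted p of 0.000574 by the exact test. skn-1 had 3861 and 4325 exon reads, 1.36-fold higher (1.30 to 1.42), while its best known transferase target gst-4 was 37.8-fold lower. The intron ratio of skn-1 rose 3.52-fold (2.04 to 6.40), adjusted p 6.13e-06 by the exact test, and skn-1 overlaps other genes on both strands. nhr-8, a nuclear receptor of xenobiotic resistance, had 271 and 33 exon reads, 6.78-fold lower (4.71 to 10.05), and overlaps a gene on the other strand that had 3375 and 102. daf-9, the P450 of dafachronic acid synthesis that is named outside the cyp scheme, had 3 and 0 reads and was not analysed.

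Flavin monooxygenases and efflux pumps held the largest partner changes. Of 4 analysed flavin monooxygenase genes 3 were at least 2-fold lower, and fmo-1 had 423 and 19 exon reads, 18.4-fold lower (11.6 to 30.8). Of 18 efflux pump genes 6 were at least 2-fold lower and 5 higher. The P-glycoprotein genes pgp-14 and pgp-3 had 241 and 5 reads and 133 and 7 reads, 39.8-fold lower (16.8 to 124) and 15.7-fold lower (7.40 to 39.8). pgp-14 overlaps nhr-27 on the same strand by 4858 bases. nhr-27 had 0 exon reads in both libraries, so how reads were shared between these 2 genes is uncertain. pgp-10 had 433 and 1524 reads, 4.26-fold higher (3.83 to 4.75), and its intron ratio fell, with an adjusted p of 0.0311 by the exact test. mrp-2 had 601 and 1331 reads, 2.68-fold higher (2.43 to 2.96). pgp-7 and pgp-8 were 2.52-fold higher (1.95 to 3.27) and 2.30-fold higher (1.61 to 3.32), from 90 and 187 and from 49 and 93 reads. These genes lie side by side on chromosome X with pgp-6, which was 2.29-fold higher (1.99 to 2.63). Sharing of reads among these neighbours was not tested.

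The 63 enzyme genes below the minimum were 14 gst, 15 ugt and 34 cyp genes. Their exon reads summed to 446 at 16 °C and 210 at 25 °C. Of these genes 40 had more scaled reads at 16 °C, 19 had more at 25 °C and 4 had 0 reads in both libraries. cyp-34A8 had 1 read at 16 °C and 38 at 25 °C, a ratio of 46.0 (7.78 to 1865), and gst-25 had 24 and 0.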

How the data were processed

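Per the submitters' processing notes, the tools were Trimmomatic, TopHat2 and HTSeq, with no versions named. Not given in the sources used here are genome build, annotation and strand setting. The authors deposited, per the file headers, raw counts of exon and intron reads per gene and library, summed exon and intron lengths, a fold (the ratio of the intron-to-exon read ratios) and its p-value and adjusted p-value. The marks Con and Exp in the labels tied the control columns to 16 °C and the experiment columns to 25 °C.

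Exon counts were scaled by each library's total, exon and intron reads together. With 1 library per temperature no test of exon reads was made, and changes were counted at 2-fold. Intervals of single genes are exact (Clopper-Pearson, 95%) and cover counting error only, as does the floor of 3 reads used against a count of 0, since PCR reads are not independent molecules. Medians over genes use 0.5 added reads. The intron-to-exon ratio was tested per gene by a two-sided Fisher exact test (SciPy 1.17.1) with Benjamini-Hochberg adjustment at 0.05 over 14972 genes with at least 10 combined reads, after a check on simulated counts. TMM scaling used edgeR 4.0.16 in R 4.3.3. Positions, overlaps and neighbours came from Ensembl release 115 (WBcel235), matched by gene identifier for all 183 members; 182 symbols are current, and cyp-34A4 is now dach-1. Overlaps leave out piRNA genes.

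Members, lists and tests were chosen with earlier results of these data known. Genes named were, per family, the 4 highest in mean RPKM, up to 4 of the largest changes each way past 2-fold, up to 4 called by the Fisher test each way, and members of known role; of the partners, the 4 largest changes each way and 5 of known role. Alternatives were other scalings, minimums, thresholds and adjustments, and members that overlap no gene.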

Additional observations from a re-analysis of the deposited data

How the results depend on the processing

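No paired analysis was possible because each temperature has 1 library and the labels give no replicate numbers. The alternative without near-identical copies, and the search of promoters for motifs, were not run because protein and promoter sequences were not used here. No family median turned direction under any alternative tried, and counts have no direction to turn. Scaling shifts of at most 0.36 on the log2 scale could neither turn the exon medians nor move them past the 1.5-fold limit used. Of 110 values, 88 stayed within 1.5 times the count or within that limit of the median. The other 22 follow, with the cause of each not tested unless the alternative's own construction shows it (fewer or more genes, another threshold). Genes at least 2-fold higher numbered 4 for ugt and 6 for cyp with scaling by the median exon ratio. With no minimum of exon reads, 3 gst genes were higher, and 39 cyp genes were lower and 10 higher; with a minimum of 200, 7 cyp genes were lower. At 1.5-fold, 4 ugt and 7 cyp genes were higher. At 4-fold, 1 ugt gene and 1 cyp gene were higher and 9 cyp genes lower. For the intron ratio, a Bonferroni adjustment at 0.01 left rises in 0 gst, 1 ugt and 0 cyp genes and in 3 partner genes, and falls in 0 ugt and 0 partner genes. Testing genes with at least 20 combined intron reads left 2 gst and 0 cyp rises, and testing with no minimum left 2 gst rises. With at least 10 combined intron reads, an alternative chosen after seeing the data, the median log2 ratio change was 0.64 for ugt and 0.013 for cyp. At an unadjusted p under 0.05, 16 members rose and 1 fell. Of 132 values of named genes, 41 moved beyond their counting interval. A turn of direction was looked for only in genes past 2-fold, which scaling shifts of at most 0.36 on the log2 scale cannot turn. Within 2-fold, ugt-50 (-0.12 to 0.24), gst-30 (-0.18 to 0.18) and ugt-28 (-0.055 to 0.31) turned with scaling by the median exon ratio. Depth limits the intron ratio, with a median of 8 combined intron reads per analysed member.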
